A study of Sus scrofa with 32 samples.

Results

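Chemokines, interleukins, their receptors, toll-like receptors and leukocyte surface genes were followed in the testis of pigs that differed in androstenone, a steroid made in the boar testis that contributes to boar taint. Genes were taken by pig symbol: those that start with CCL, CXCL, CXCR or TLR, or with CCR, IL or CD followed by a digit, apart from CD163 and CD68. Of 139 matching symbols, 113 had at least 10 counts in total, out of 25322 gene identifiers in the files and 11804 with a symbol. The choice by prefix also takes in genes that are neither cytokines nor leukocyte markers, namely IL4I1, an enzyme that oxidises phenylalanine, CD2AP, a cytoskeletal adaptor, CD2BP2, a protein linked to splicing, and 13 CD genes that many cell types express. TLR9, CD28 and CD40LG were just inside the limit with 10 counts each, and CD1E and IL1A just outside it with 9 each. No read was counted for 13 of the matched symbols, among them IL6, IL4, IL9, IL21, IL22, CCR9 and CXCR5.

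Chemokines are small secreted proteins that steer leukocytes through receptors coupled to G proteins, interleukins signal through receptor chains that several of them share, and toll-like receptors detect microbial products. In the testis macrophages lie in the interstitium beside the Leydig cells, while most germ cells sit behind the barrier formed by the Sertoli cells. Many molecules with a CD number are adhesion proteins or tetraspanins that are not restricted to leukocytes.

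The samples were testes of 32 Danish male pigs from crosses of Duroc and Landrace/Yorkshire, with 1 library of messenger RNA per pig. The labels sort the pigs by androstenone and skatole (AS) into High and Low, and the diet was a control feed or one with 15% chicory, a plant rich in inulin, for the last 3 days. The control diet was given to 10 High AS and 7 Low AS animals, and chicory to 7 of each kind and to 1 without an AS group, which entered the levels but no comparison. Androstenone averaged 2.59 mg/kg ± 1.99 in High AS (SD, n = 17) and 0.54 mg/kg ± 0.405 in Low AS (SD, n = 14), and of the 14 sows 7 had offspring in both groups. The libraries held between 1855174 and 20349500 counts in genes (median 4061083). Library names divide the pigs into 24 plain and 8 numbered libraries; the numbered ones were the 8 deepest, and 6 of them came from High AS pigs. Markers of Leydig cells (INSL3, CYP17A1), Sertoli cells (SOX9, WT1) and spermatids (PRM1, TNP1) were read in 32 of 32 pigs, while the epididymal genes CRISP1 and LCN8 had 8 and 18 counts in all libraries together. ADAM28, also listed as epididymal, had 2717 counts and reads in 32 pigs, with a median of 12.4 CPM (4.45 to 38.95). Low AS chicory replicate 1 stood apart: the mean log2 level of its spermatid markers was 8.1, against 9.6 to 11.5 in the other pigs. Its Sertoli cell marker level, 6.02, was the highest of the 32. It was also the library with the fewest counts (1855174), the fewest genes detected (14999) and the highest share of reads in no feature (39.6%). Where leaving out this or another library moved a named estimate by more than 1.5 times, the estimate without it is also given.

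The set made up a small part of the messenger RNA of the whole testis. It took 0.153% of all gene reads, and 50.7% of that share fell to 4 genes, IL4I1, CD164, CD63 and CD47. A median of at least 1 CPM (counts scaled to library size), used here as the sign of expression, was reached by 62 of the 113 (54.9%), compared with 74.7% of the 18095 identifiers with at least 10 counts. The number was 76 at a limit of 0.5 CPM and 44 at 2 CPM. Among the 113, 50 had a read in every pig, 22 had a median of 0 and 19 stayed at or under 1 CPM in all 32 pigs. CPM is not divided by transcript length, so a larger value below means more reads and not more transcripts, and values of different genes are not ranked. In whole tissue, fewer cells of a type and less RNA per cell cannot be told apart.

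**Figure D1:**
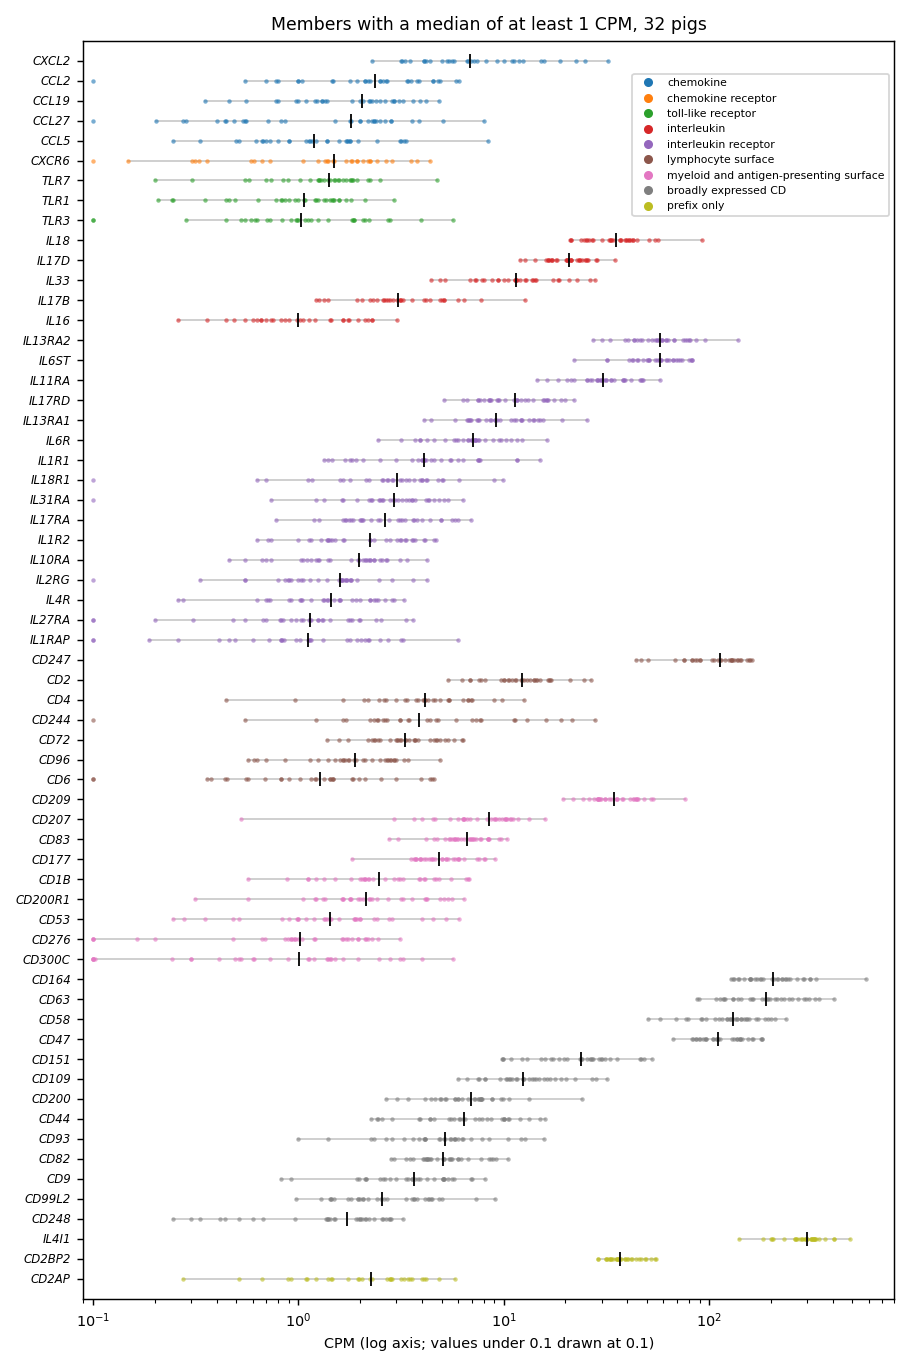
Level of each gene with a median of at least 1 CPM, on a log axis, with 1 point per pig (n = 32), a black bar at the median and colours for the class of gene. The points of IL4I1 lie between 139.5 and 487.9 CPM, whereas those of CCL2, CCL5, CCL19, CCL27 and the 3 toll-like receptors lie under 10 CPM.

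Of 11 chemokines, 5 reached a median of 1 CPM. CXCL2, which attracts neutrophils, had from 2.28 to 32.2 CPM with a median of 6.84. Its median was 5.50 CPM in the plain libraries and 17.2 CPM in the numbered ones, so its spread between pigs goes with library set. CCL2, which attracts monocytes, had a median of 2.37 CPM (0 to 6.03), CCL19, a ligand of CCR7, 2.04 CPM (0.350 to 4.85), and CCL27, a ligand of CCR10, 1.80 CPM (0 to 8.05). CCL5, made by T cells, macrophages and others, had a median of 1.197 CPM (0.244 to 8.42), and its highest value was that of Low AS chicory replicate 1. CXCL14 had 65 counts in 19 pigs, CCL17 had 42 counts in 15 pigs and CCL28 had 27 counts in 14 pigs. CXCL2 and CCL3L1 belong to groups of near-identical genes, so their counts are uncertain.

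Of 7 chemokine receptors 1 reached the limit, CXCR6, the receptor of CXCL16 on T cells, with a median of 1.49 CPM (0 to 4.39). CCR1, found on monocytes and macrophages, had 131 counts in 28 pigs. CXCR3 (22 counts in 18 pigs), CCR7 (32 counts in 15 pigs) and CCR10 (39 counts in 18 pigs) were near the limit of detection.

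All 10 matched toll-like receptors had at least 10 counts, and 3 reached the limit of expression. TLR7, which senses single-stranded RNA, had a median of 1.41 CPM (0.200 to 4.74). TLR1, a partner of TLR2, had 1.07 CPM (0.208 to 2.92), and TLR3, which senses double-stranded RNA, had 1.03 CPM (0 to 5.69). TLR2 had a median of 0.731 CPM, and TLR4, the receptor of bacterial endotoxin, a median of 0.369 CPM with reads in 23 pigs. TLR8, TLR9 and TLR10 had 20, 10 and 13 counts in total.

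Among 11 interleukins, reads were concentrated on IL18, IL17D and IL33. IL18, a cytokine of the IL-1 family processed by caspase-1, had a median of 35.4 CPM (20.9 to 92.1). IL33, a nuclear cytokine released by damaged cells, had a median of 11.5 CPM (4.45 to 27.9), and IL17D, a member of the IL-17 family, 20.8 CPM (11.99 to 35.0). The highest values of IL18 and IL33 both came from Low AS chicory replicate 1. IL17B had a median of 3.08 CPM and IL16, a ligand of CD4, 1.00 CPM. Of the cytokines of T helper cells, IL13 had 20 counts in 10 pigs and IL5 had 107 counts in 26 pigs. IL10, which restrains inflammation, had a median of 0.354 CPM (0 to 3.21), and IL15 one of 0.784 CPM (0 to 2.63).

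Of 24 interleukin receptor chains, 16 were above the limit. IL6ST, the signalling chain shared by the receptors of IL-6, IL-11 and related cytokines, had a median of 57.5 CPM (22.1 to 83.0). Its partners IL11RA and IL6R had 30.5 CPM (14.5 to 57.6) and 7.06 CPM (2.45 to 16.2). IL13RA2, which binds IL-13 and is known as a decoy receptor, had 58.0 CPM (27.4 to 139.1), and IL13RA1, the chain that signals together with IL4R, had 9.22 CPM (4.11 to 25.6). IL17RD, an inhibitor of growth factor signalling, had 11.4 CPM (5.13 to 22.03). IL1R1, the signalling receptor of IL-1, had 4.10 CPM (1.34 to 15.1) and IL1R2, its decoy, 2.23 CPM (0.631 to 4.69). IL2RG, the chain shared by receptors of the IL-2 family, had 1.59 CPM (0 to 4.21), IL10RA had 1.97 CPM (0.459 to 4.25), IL17RA had 2.63 CPM (0.775 to 6.90), and IL7R had 50 counts in 19 pigs.

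Of 20 lymphocyte surface genes, 7 reached the limit. CD247 (ENSSSCG00000006309), the zeta chain of the T cell receptor complex, had reads in all 32 pigs and a median of 114 CPM (44.2 to 162). CD3D, another chain of that complex, had 62 counts in 15 pigs. CD8A had 164 counts in 27 pigs and CD8B 54 counts in 24 pigs. CD2, an adhesion receptor of T and natural killer cells, had a median of 12.2 CPM (5.38 to 26.6), and CD4 one of 4.13 CPM (0.445 to 12.6). CD247 differed with library set, with a median of 128 CPM in plain and 79.1 CPM in numbered libraries. Genes of other classes did so too. Plain and numbered medians were 212 and 118 CPM for CD63, 2.02 and 4.66 for CCL2, and 1.80 and 5.01 for CD200R1. They were alike for CD58, at 131.9 and 131.6 CPM. CD244, a receptor of natural killer cells, ran from 0 to 27.96 CPM with a median of 3.86. CD72 of B cells had a median of 3.33 CPM, whereas CD79B and CD22 of the same cells had medians of 0.176 and 0 CPM.

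Genes of myeloid and antigen-presenting cells reached the limit in 9 of 14 cases. CD209, a lectin of dendritic cells and macrophages, had a median of 34.3 CPM (19.5 to 76.2), and CD207, the lectin langerin of Langerhans cells, 8.51 CPM (0.526 to 15.9). CD83, a marker of mature dendritic cells, had 6.60 CPM (2.76 to 10.3) and CD177, a neutrophil glycoprotein, 4.83 CPM (1.84 to 9.11). CD14, the co-receptor of TLR4 on monocytes, had a median of 0.817 CPM (0 to 3.68), CD80 one of 0.567 CPM and CD86 one of 0.287 CPM, the last with reads in 23 pigs. Macrophage genes outside the set summed to between 37.0 and 93.8 CPM per pig, of which MRC1 had a median of 31.4 CPM. In this list 7 of 10 identifiers reached a median of 1 CPM. CSF1R, SIGLEC1 and CD68 did not, with medians of 0.452, 0.406 and 0.402 CPM.

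The 13 broadly expressed CD genes were all read in every pig and held 45.7% of the reads of the 113. CD164, a sialomucin, had a median of 205 CPM (128 to 583) and CD63, a tetraspanin of late endosomes, 190.0 CPM (87.2 to 406.5). CD58, the ligand of CD2, had 132 CPM (50.3 to 237), and CD47, a signal against phagocytosis, 111 CPM (66.8 to 182). CD151, a tetraspanin, had 23.9 CPM (9.83 to 52.6), CD109 had 12.5 CPM (5.99 to 31.8), CD44, the hyaluronan receptor, 6.41 CPM (2.25 to 15.9), CD82 5.08 CPM (2.84 to 10.6) and CD9, a tetraspanin of the egg surface among other cells, 3.65 CPM (0.822 to 8.13). IL4I1 had a median of 301 CPM (139.5 to 487.9), with 55555 counts in total, and was lowest in Low AS chicory replicate 1.

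Between High AS and Low AS testes no gene of the set passed the test. Of the 113, 54 had enough counts to be tested in the fit over all genes with diet and library set as terms, and 0 were called at an adjusted p of 0.05, against 0% of 13025 genes tested (edgeR's quasi-likelihood test, Benjamini-Hochberg adjustment; 0 also with DESeq2 and with limma voom). At an unadjusted p under 0.05 there was 1 of the 54 (1.85%), beside 2.3% of all genes. Estimates were above 0 for 23 and below 0 for 31, with a median log2 difference of -0.05, where 51.6% of all genes were above 0 with a median of 0.01. The 95% interval of the difference lay within a change of 2-fold for 45 of the 54 and within 1.5-fold for 24. The main fits, here and below, had no sow term. Littermates counted as independent in them, so the intervals can be too narrow. The other 59 genes did not pass the filter on low counts. With no filter 0 of them were called, at SEs of the log2 difference from 0.295 to 1.152 (median 0.552).

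The gene with the smallest p was IL1R2 (ENSSSCG00000028331), the decoy receptor of IL-1. Its level ran from 0.733 to 4.69 CPM in the 17 High AS pigs, with a median of 2.78, and from 0.631 to 4.58 CPM in the 14 Low AS pigs, with a median of 1.40. The groups overlapped over nearly their whole range, and the log2 difference of High minus Low was 0.53 (SE 0.24, edgeR adjusted p = 0.988). It was 0.68 (SE 0.31) in plain libraries alone and 0.18 (SE 0.47) in numbered libraries alone. The level itself went with library set, at a median of 2.90 CPM in plain and 1.45 CPM in numbered libraries. CD4 (ENSSSCG00000000687) had 0.445 to 6.67 CPM in High AS with a median of 3.74, and 1.66 to 12.6 CPM in Low AS with a median of 4.77. Its log2 difference was -0.53 (SE 0.27), at -0.38 (SE 0.36) in plain and -0.57 (SE 0.40) in numbered libraries. Low AS chicory replicate 1 had the highest CD4 value, and without it the difference was -0.46 (SE 0.26).

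CD248, a protein of pericytes and fibroblasts, had a log2 difference of -0.55 (SE 0.31), with 0.244 to 2.76 CPM in High AS and 0.332 to 3.22 CPM in Low AS. CD207 had a median of 9.49 CPM in High AS (2.93 to 15.9) and 6.54 CPM in Low AS (0.526 to 10.8), a difference of 0.32 (SE 0.23). That value was 0.56 (SE 0.28) in plain and 0.05 (SE 0.32) in numbered libraries. It was 0.21 (SE 0.22) without High AS control replicate 10, which had the highest CD207, and 0.25 (SE 0.19) without Low AS chicory replicate 1, which had the lowest. Other positive estimates of smallest p were IL6ST at 0.20, CD99L2, a relative of the adhesion protein CD99, at 0.36, CD247 at 0.14 and CD47 at 0.10. Other negative ones were CD2BP2 at -0.13, CD2AP at -0.40, IL11RA at -0.22 and CCL27 at -0.54. CD47, CD2BP2, IL11RA and CCL27 changed sign in the numbered libraries alone. Several of these estimates depended on 1 pig. Without Low AS control replicate 3, IL6ST was 0.13 and CD247 0.085. Without Low AS chicory replicate 1, CD247 was 0.085 and CD47 0.066, and CD47 was 0.061 without High AS chicory replicate 1. CD99L2 was 0.23 without High AS control replicate 5, IL11RA -0.12 without Low AS control replicate 5 and CCL27 -0.26 without Low AS control replicate 2. By class, 4 of 5 chemokines, 7 of 13 interleukin receptors, 4 of 7 lymphocyte genes, 2 of 8 myeloid genes and 0 of 4 interleukins had a positive estimate.

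**Figure D2:**
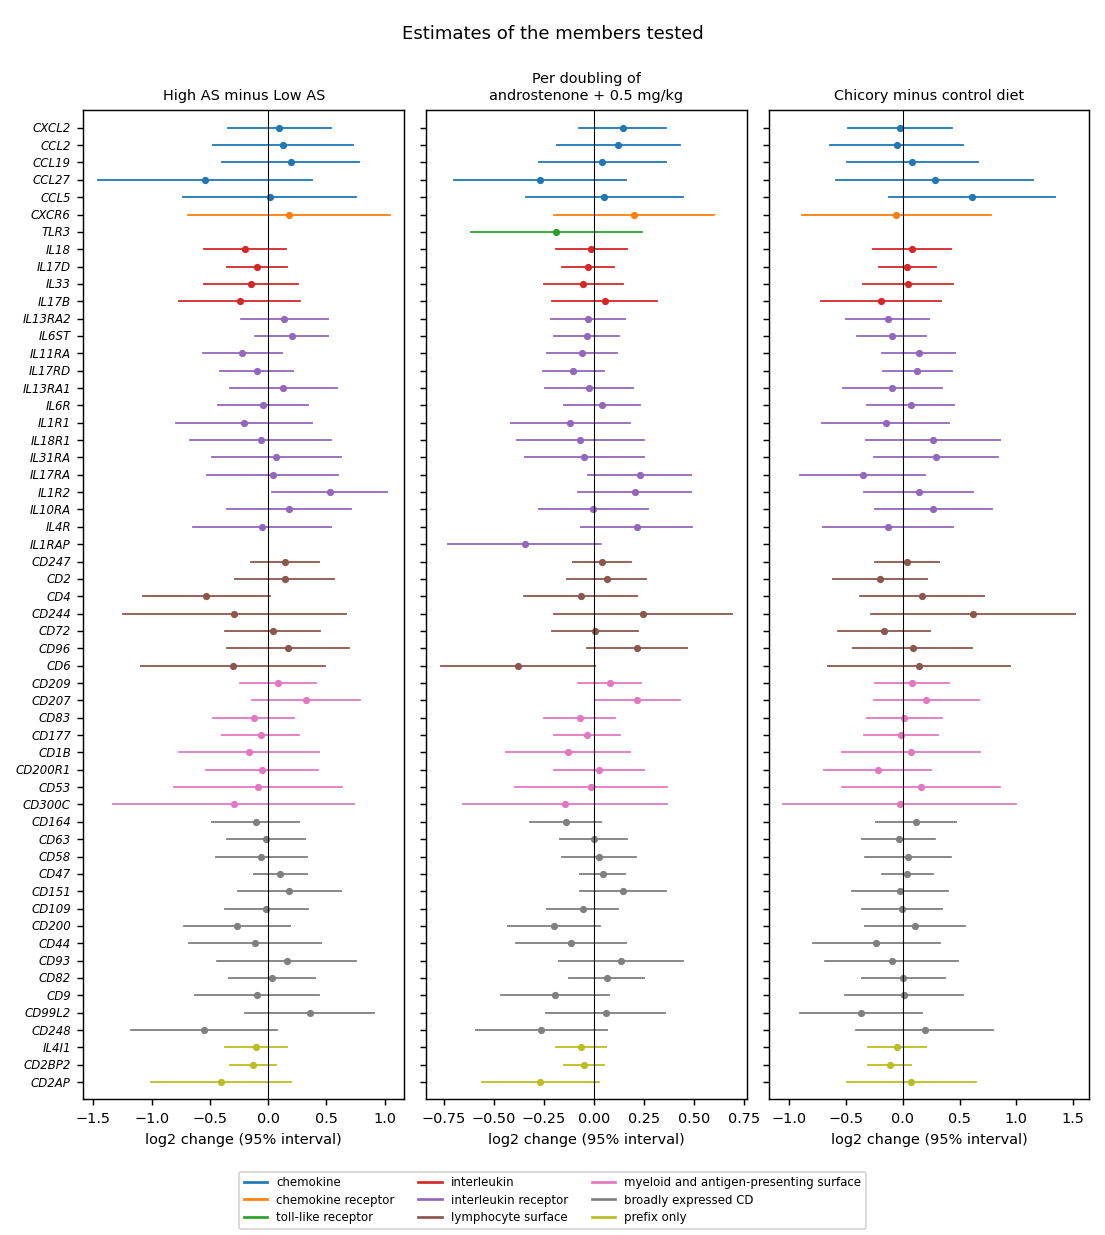
Log2 estimate and 95% interval of each gene tested, for High minus Low AS, per doubling of androstenone plus 0.5 mg/kg, and for chicory minus control diet (31 pigs, colours by class). Most intervals cross 0, with IL1R2 in the first panel and CD207 in the second as the exceptions, and no gene passed after adjustment.

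The concentration of androstenone itself gave the same count. With log2 of the concentration plus 0.5 mg/kg in place of AS group, 56 of the 113 genes were tested and 0 called, beside 0.0227% of 13199 genes (3 genes, none of them in the set). At an unadjusted p under 0.05 there was 1 of the 56 (1.79%) against 5.06% of all genes, and DESeq2 and limma voom called 0 of the set. Slopes were above 0 for 24 of the 56, beside 47.1% of all genes. For 56 of 56 genes the 95% interval of the slope lay within a change of 2-fold per doubling, and for 48 within 1.5-fold. This comparison uses the same pigs as the AS comparison, so the results are not independent of each other.

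CD207 (ENSSSCG00000008319) had the smallest p, with a slope of 0.22 (SE 0.10, edgeR adjusted p = 0.852). The slope was 0.28 (SE 0.12) in plain libraries, 0.02 (SE 0.14) in numbered ones and 0.20 (SE 0.09) without Low AS chicory replicate 1, the pig with the lowest CD207. It was 0.11 (SE 0.12) without High AS control replicate 10, the pig with the highest androstenone (7.77 mg/kg) and the highest CD207. CD6, a T cell receptor for the adhesion molecule ALCAM, had a slope of -0.38 (SE 0.19), and IL1RAP, the accessory chain of IL1R1, one of -0.35 (SE 0.19). CD2AP had -0.27 (SE 0.14), CD248 -0.26 (SE 0.16), CD200, an inhibitory ligand of myeloid cells, -0.20 (SE 0.11) and CD164 -0.14 (SE 0.09). On the positive side IL17RA had 0.23 (SE 0.13), CD96, an adhesion receptor of T and natural killer cells, 0.22 (SE 0.12), IL4R 0.21 (SE 0.13), IL1R2 0.20 (SE 0.14) and CD151 0.14 (SE 0.11). Without High AS control replicate 10 the slope of IL1R2 was 0.35 and that of CD151 0.22. Leaving out High AS chicory replicate 3 gave 0.071 for CD151, and leaving out Low AS chicory replicate 6 gave 0.092. With sow as a fixed block IL17RA, CD96, IL4R and CD6 changed sign.

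Chicory left no gene of the set past the threshold. Of 54 tested, 0 were called, beside 0.00768% of 13025 genes (1 gene outside the set), and 0 had an unadjusted p under 0.05 (0.875% of all genes). DESeq2 and limma voom also called 0 of them. Estimates of chicory minus control were above 0 for 31 and below 0 for 23, with a median of 0.04, beside 51.9% of all genes above 0, and intervals lay within a change of 2-fold for 50. CCL5 (ENSSSCG00000017705) had the smallest p. It ran from 0.517 to 8.42 CPM on chicory with a median of 1.48 (n = 14), and from 0.244 to 3.27 CPM on control diet with a median of 1.10 (n = 17), so the groups overlapped. The log2 difference was 0.61 (SE 0.36, edgeR adjusted p = 1), 0.35 (SE 0.32) without Low AS chicory replicate 1, and -0.03 (SE 0.63) in numbered libraries alone.

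CD244 had an estimate of 0.62 (SE 0.44) for chicory, with medians of 4.32 CPM on chicory and 2.70 CPM on control diet. The estimate was -0.04 (SE 0.52) in plain and 1.95 (SE 0.58) in numbered libraries, 1.08 (SE 0.38) without Low AS control replicate 5 and 0.36 (SE 0.42) when High AS chicory replicate 2 was left out. IL31RA, which binds IL-31, had 0.29 (SE 0.27), IL10RA 0.27 (SE 0.25), IL18R1, the receptor of IL-18, 0.27 (SE 0.29) and CD207 0.21 (SE 0.23). Negative estimates were found for CD99L2 at -0.37 (SE 0.26), IL17RA at -0.35 (SE 0.27), CD44 at -0.23, CD200R1, the receptor of CD200, at -0.22, CD2 at -0.20 and CD2BP2 at -0.12. IL10RA was 0.16 without High AS chicory replicate 4, IL18R1 0.42 without Low AS control replicate 7 and 0.12 when High AS chicory replicate 6 was left out, and CD207 0.33 without High AS control replicate 10. CD2 was -0.13 without High AS control replicate 2 and -0.089 without Low AS control replicate 2. CD200R1 was -0.14 without Low AS control replicate 2 and -0.12 without High AS control replicate 10. CD44 ran from -0.15 to -0.11 when 1 of 4 pigs was left out, High AS chicory replicate 2, High AS control replicate 7, or Low AS control replicate 2 or 6.

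Whether the chicory difference itself varied between AS groups was tested as an interaction, defined as the chicory minus control difference in High AS less that in Low AS. None of 54 genes was called (0% of 13025; 0 with DESeq2 and limma voom), and 4 of them, or 7.41%, had an unadjusted p under 0.05 beside 3.63% of all genes. These were IL33, CD4, IL18 and IL1R1, all with a negative estimate (2.46% of all genes had such a p and a negative estimate). With no filter on low counts, 0 of the other 59 genes were called. Those with an unadjusted p under 0.05 by edgeR went both ways. CD28 at 3.99 (SE 1.55) and CD80 at 2.17 (SE 0.87) were positive, and IL1RAPL2, CD40LG and CXCR3 were negative. These estimates rest on few reads. CD28 and CD40LG had 10 counts each in all libraries together, IL1RAPL2 12, CXCR3 22 and CD80 149. The share of all genes with such a p in that fit was not taken, so the 2 fits are not compared. Estimates were above 0 for 22 of the 54, beside 47.7% of all genes. The intervals were wide, with 13 of 54 within a change of 2-fold. IL33 (ENSSSCG00000005203) had medians of 11.7 CPM in High AS on control diet, 11.5 in High AS on chicory, 9.41 in Low AS on control diet and 11.7 in Low AS on chicory, with ranges that overlapped in all 4 groups. Its interaction was -1.08 (SE 0.36, p = 0.00496 and adjusted p = 0.951 by edgeR), and -0.86 (SE 0.32) without Low AS chicory replicate 1. Under 12 other settings, apart from single pigs left out, it ran from -1.245 to -0.477. Numbered libraries were 3 of 10, 3 of 7, 2 of 7 and 0 of 7 in these 4 groups, so the medians mix library sets. IL33 had a median of 18.5 CPM in numbered libraries and 10.2 CPM in plain ones.

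CD4 had medians of 4.02 and 2.67 CPM in High AS on control diet and chicory, and 3.84 and 6.99 CPM in Low AS on control diet and chicory. The 7 Low AS pigs on chicory ran from 4.10 to 12.6 CPM, and the 7 High AS pigs on chicory from 0.445 to 6.67 CPM. The interaction was -1.28 (SE 0.52), or -1.14 (SE 0.51) without Low AS chicory replicate 1. IL18 (ENSSSCG00000015037) had medians of 38.0 and 27.01 CPM in High AS and 32.5 and 41.6 CPM in Low AS, in the same order. Its interaction was -0.78 (SE 0.32), and -0.57 (SE 0.30) without that pig. Under the 12 other settings it ran from -0.943 to -0.406. IL1R1, outside the rule for named genes, had -1.15 (SE 0.54). Positive estimates of smallest p were IL10RA at 0.97 (SE 0.51), IL18R1 at 1.13 (SE 0.60) and IL4I1 at 0.45 (SE 0.25), the last 0.33 (SE 0.21) without Low AS chicory replicate 1. Sertoli cell markers gave 9 of 9 negative interaction estimates and spermatid markers 10 of 10 positive ones in the same fit, with 0 called in either list. Low AS chicory replicate 1 had the highest Sertoli cell and the lowest spermatid marker level of all pigs. The marker estimates were not taken without that pig. The part of these markers in the values of IL33, IL18 and CD4 was not tested.

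**Figure D3:**
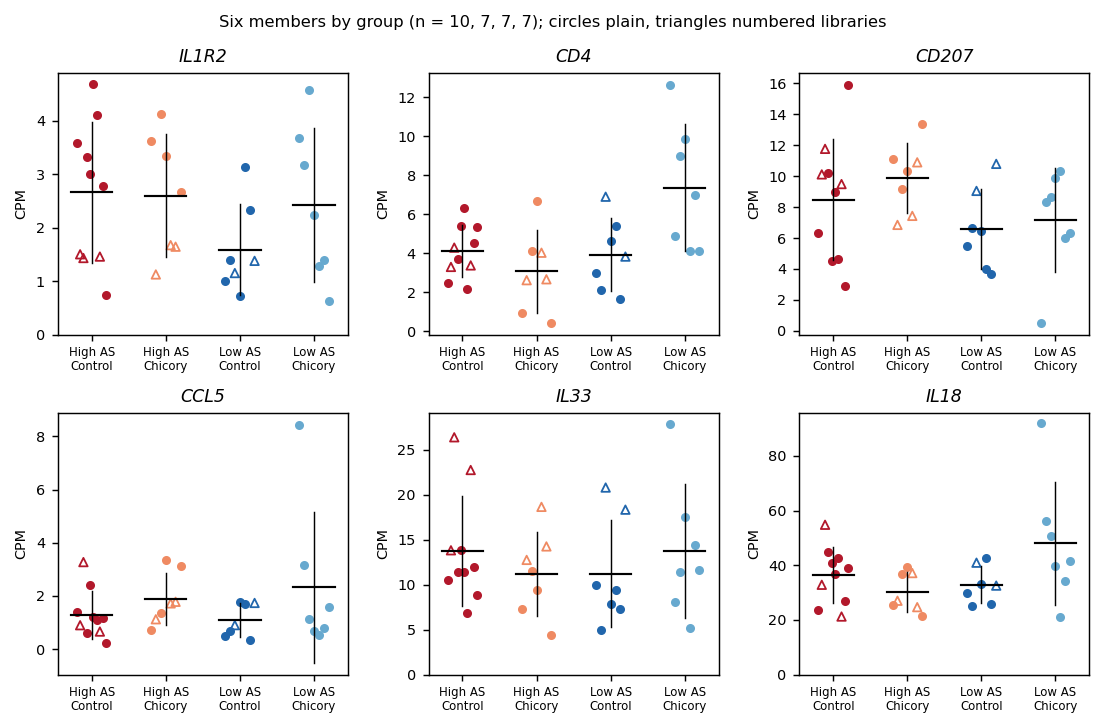
CPM of IL1R2, CD4, CD207, CCL5, IL33 and IL18 in each pig by AS group and diet (10, 7, 7 and 7 pigs), with a bar at the mean and a line of 1 SD either way. Circles are plain and triangles numbered libraries; the groups overlap for each gene, and Low AS chicory replicate 1 is the highest point of CD4, CCL5, IL33 and IL18 and the lowest of CD207.

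The genes that carry the signals of these receptors had no calls either. From a list of adaptors, kinases, transcription factors and inhibitors downstream of toll-like and cytokine receptors, 37 had an identifier. Of these 29 were tested for AS, with 9 estimates above and 20 below 0. For androstenone 31 were tested, with 11 above and 20 below, and for diet 29, with 13 above and 16 below. Among all genes tested, 51.6%, 47.1% and 51.9% of estimates were above 0, in the same order. Unadjusted p by edgeR was under 0.05 for 1, 0 and 1 of the list, beside 2.3%, 5.06% and 0.875% of all genes. Of 19 other chemokine and cytokine genes with an identifier, 6 were tested for AS (2 above 0), 7 for androstenone (5 above 0) and 6 for diet (5 above 0). In both lists 0 genes were called in each of these comparisons. No marker of the cells of the testis was called for AS in the lists that follow. A positive estimate was found for 10 of 10 spermatid markers, with a median of 0.21, and for 4 of 6 Leydig cell markers, with a median of 0.42. It was found for 2 of 9 Sertoli cell markers, with a median of -0.08, and for 0 of 4 spermatogonia markers tested, with a median of -0.34. Low AS chicory replicate 1 had the lowest spermatid marker level and the highest spermatogonia marker sum. That sum was 107.9 CPM, against at most 36.4 CPM in High AS. These marker estimates were not taken without that pig. Macrophage markers summed to 37.0 to 93.2 CPM in High AS (median 48.4) and 40.2 to 93.8 CPM in Low AS (median 62.2). MRC1 had the highest median of the macrophage list, 31.4 CPM over 32 pigs. T and natural killer cell markers, with 4 genes of the set, summed to 13.0 to 31.5 (median 21.5) and 11.7 to 32.1 CPM (median 19.6). In this list 4 of 11 identifiers reached a median of 1 CPM, and CD2 had the highest, 12.2 CPM. B and plasma cell markers, with 2 genes of the set, summed to medians of 4.35 and 4.10 CPM. Of their 5 identifiers 1 reached a median of 1 CPM, BLK at 2.47 CPM. Granulocyte and mast cell markers summed to medians of 14.7 and 15.4 CPM. That last sum was mainly KIT, with a median of 13.7 CPM over 32 pigs. FCER1A, S100A8 and MPO had medians of 0.467, 0.428 and 0.202 CPM. Blood markers, mainly the haemoglobin gene HBB, summed to 8.30 to 152 CPM in High AS and 8.05 to 173 CPM in Low AS. No list had all its genes at 0, but CSF3R, SLC4A1, PRF1, SH2D1A, CD3D, GFRA1, CRISP1, LCN8 and DEFB1 had a median of 0 CPM. The part of these cells in the differences above was not tested.

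Levels were also compared with markers of the resident cells of the testis between pigs, whatever their group. For the 50 genes read in every pig, log2 levels were related to the mean log2 level of 7 marker lists in the 24 plain libraries, 350 relations chosen after the data had been seen. Pearson's r and Spearman's rho had to pass by permutation test with Benjamini-Hochberg adjustment over the 350, and r had to pass again without the 2 pigs farthest from the median of the marker level. This was so for 55 relations in 25 genes, of which 48 had the same sign in the 8 numbered libraries. The smallest coefficients among the 55 were 0.531 for r, 0.53 for rho and 0.451 for r without 2 pigs, in absolute size. At or above all 3 were 15.7% of the 350 relations and 13.3% of the 87017 relations of the 12431 genes read in every pig outside the marker lists. In genes, this was 25 of 50 (50%) in the set and 46.3% of all, so the count is near that of other genes. Without Low AS chicory replicate 1 there were 31, of which 29 were shared with the 55. Both measures come from the same library and scaling, so a larger share of reads from 1 cell type lowers the others. The 24 plain libraries came from 13 sows, and the permutations did not keep littermates together, so their p-values can be too small.

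CD63 and CD151 rose with Leydig cell markers. CD63 had r = 0.86 (permutation p = 1e-05, the smallest the permutations can give, adjusted p = 0.0007) and rho = 0.89 (p = 1e-05, adjusted p = 0.0012), with r = 0.82 without the 2 most distant pigs and 0.90 in the numbered libraries. CD151 had r = 0.87 (permutation p = 1e-05, adjusted p = 0.0007) and rho = 0.85 (p = 1e-05, adjusted p = 0.0012), with r = 0.86 and 0.76 in the same checks. CD93, CD53, CD82, CD99L2 and IL1R1 were also positive with this list, at r from 0.66 to 0.74, and held without Low AS chicory replicate 1. CD63 was highest, at 406.5 CPM, in Low AS control replicate 5, 1 of the 2 pigs with the highest Leydig cell marker levels.

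Spermatid markers separated another set. CD164 fell as they rose, with r = -0.88 (permutation p = 1e-05, adjusted p = 0.0007) and rho = -0.86 (p = 1e-05, adjusted p = 0.0012), r = -0.80 without 2 pigs and -0.69 in the numbered libraries. CD209 rose with them, with r = 0.72 (permutation p = 0.00012, adjusted p = 0.0035) and rho = 0.70 (p = 0.00030, adjusted p = 0.0081), r = 0.76 without 2 pigs and 0.69 in the numbered libraries. IL1R1 (r = -0.75) and CD2AP (r = -0.67) were negative and held without Low AS chicory replicate 1. CD2 (r = 0.60), CD207 (r = 0.84), IL33 (r = -0.67) and TLR7 (r = -0.67) did not hold without it, and r of CD207 was -0.14 in the numbered libraries. CD247 had r = 0.60 and IL4I1 r = 0.56, but 0.25 and 0.30 without the 2 most distant pigs, so those relations rested on these pigs.

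IL33 and CD164 rose with Sertoli cell markers. IL33 had r = 0.76 (permutation p = 5e-05, adjusted p = 0.0019) and rho = 0.72 (p = 0.00013, adjusted p = 0.0065), with r = 0.65 without 2 pigs, 0.61 in the numbered libraries and 0.67 without Low AS chicory replicate 1. CD209 (r = -0.70) and CD2 (r = -0.62) went the other way. With macrophage markers CD53, a tetraspanin of leukocytes, had r = 0.74 (permutation p = 4e-05, adjusted p = 0.0017) and rho = 0.71 (p = 0.00012, adjusted p = 0.0065), r = 0.69 without 2 pigs and 0.68 in the numbered libraries. CCL5 had r = 0.58 with that list in plain libraries and -0.35 in the numbered ones. Endothelial markers went with CD93, an endothelial surface protein (r = 0.72), and against CD47 (r = -0.70) and IL13RA2 (r = -0.69). Peritubular markers also went against CD47 (r = -0.69) and IL13RA2 (r = -0.67), and no gene of the 50 held a relation with spermatocyte markers.

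**Figure D4:**
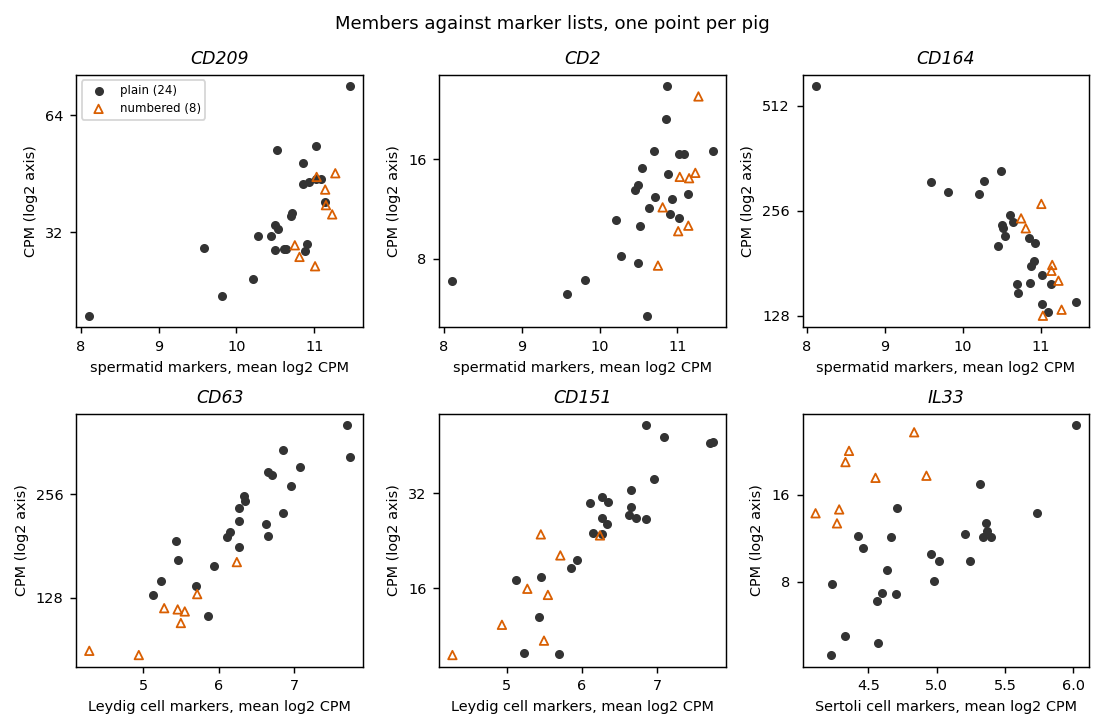
CPM of 6 genes on a log2 axis against the mean log2 CPM of a marker list, 1 point per pig, with 24 plain libraries as circles and 8 numbered ones as triangles. CD209 rises and CD164 falls with spermatid markers, CD2 is shown although its relation did not hold without Low AS chicory replicate 1, CD63 and CD151 rise with Leydig cell markers, and IL33 rises with Sertoli cell markers at a higher level in numbered libraries.

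**Figure D5:**
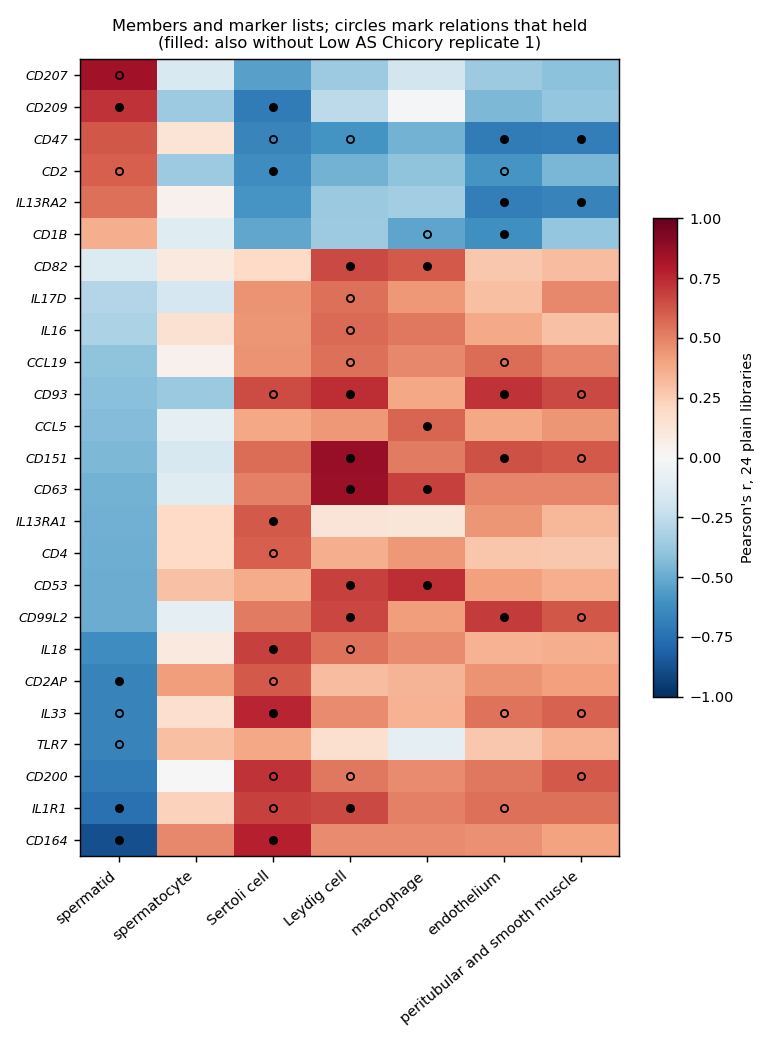
Pearson's r (colour, red positive and blue negative) between 25 genes and 7 marker lists over 24 plain libraries. Circles mark the 55 relations that held, filled where they also held without Low AS chicory replicate 1; the column of spermatid markers runs from CD207 at 0.84 to CD164 at -0.88.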

How the data were processed

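The authors deposited whole-number read counts per Ensembl gene, 1 table per pig, with no normalization. Per the labels' protocols, RNA came from a Qiagen kit and libraries from the TruSeq stranded mRNA kit. HTSeq 0.6.0, SAMtools 1.3.1, STAR, cutadapt 1.8.1 and Trimmomatic 0.33 are listed in the submitters' processing notes. Build, annotation release and strand setting are not given in the sources used here. Genes that overlap on either strand therefore could not be told apart. The 5 closing rows of reads outside genes (no feature, 20.6% to 39.6% of a library) were left out.

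Symbols came from a table of identifiers and symbols. Levels are CPM scaled by edgeR's TMM factors over 32 libraries. Fits used edgeR 4.0.16 in R 4.3.3 (filterByExpr, TMM, quasi-likelihood F test, Benjamini-Hochberg at 0.05 over all genes) on 31 pigs, with library set and diet or AS group as terms. Sow was a term only in alternative fits. SE is the log2 estimate divided by the square root of F. Alternatives used DESeq2 1.42.0 and limma 3.58.1. Scripts were tested on simulated data. The smallest chi-square per degree of freedom over 108 library pairs of a group was 7.24, so none was counted as a duplicate. Replicate numbers follow accession order and pair no pigs. Each library is from a different pig. Log2 CPM of single pigs uses a prior count of 2.

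Genes named in comparisons were the 6 of each sign with the smallest p (3 in the interaction). The genes, classes and lists were chosen with earlier results of these data known.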

Additional observations from a re-analysis of the deposited data

Results flagged for a closer look

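For 31 genes of the set, log2 CPM was checked within each of the 4 groups for a pig far from the others, 124 checks in all, of which 9 found such a pig. Chance alone flags about 1 group in 20. Low AS chicory replicate 1 was far below the other 6 pigs of its group in 3 genes: CD207 at a log2 CPM of -0.24 where the nearest pig had 2.66, CD247 at 5.48 against 6.73, and IL4I1 at 7.13 against 8.04. The same library had the lowest spermatid marker level of the 32, at a mean log2 of 8.1. It also had the fewest counts and the highest share of reads in no feature. The part of these traits in the 3 values was not tested. In Low AS pigs on control diet, CD248 was low in replicate 6 at -0.62 (nearest 0.78) and IL31RA in replicate 2 at -1.64, where no read was counted (nearest 0.72). In High AS pigs on control diet, CD96 was low in replicate 6 at -0.10 (nearest 0.87) and IL6ST in replicate 3 at 5 (nearest 5.67). In High AS pigs on chicory, IL10RA was low in replicate 3 at -0.36 (nearest 1.19) and IL11RA high in replicate 5 at 5.59 (nearest 5.07).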

How the results depend on the processing

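In the AS, androstenone, diet and interaction comparisons 0 genes of the set were called under each alternative run, including each pig left out in turn (0 to 0). The AS count over all genes was also 0 throughout. Over all genes the androstenone count of 3 became 7 with DESeq2 and 9 with no filter on low counts, and 0 with no library set term, with index set, in numbered libraries alone, with carcass weight, with sow as a fixed block, with ranks of the concentration and without pigs at 0 mg/kg. It ran from 1 to 4 with a pig left out. The diet count of 1 became 0 with limma voom, with no library set term, in plain or numbered libraries alone and with sow as a random effect, and ran from 0 to 1 with a pig left out. The interaction count of 0 became 1 with no filter, and the interaction could not be fitted in numbered libraries alone, which hold no Low AS pig on chicory. In each case the cause was not tested. Marker relations numbered 77 when centred within index set (53 of them shared with the 55) and 31 without Low AS chicory replicate 1, both alternatives chosen after the data had been seen.

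Of 1855 values of the 42 named estimates under alternatives, 1838 kept their sign and their side of the threshold and 17 changed sign. In numbered libraries alone the AS estimates of CD47, CD2BP2, IL11RA and CCL27 were -0.10, 0.075, 0.30 and 0.32, the androstenone slope of CD96 was -0.19, and the diet estimates of CCL5, IL31RA and CD207 were -0.027, -0.10 and -0.31. With sow as a fixed block the slopes of IL17RA, CD96, IL4R and CD6 were -0.082, -0.0143, -0.023 and 0.11, and the diet estimates of CD207 and CD99L2 were -0.19 and 0.050. In plain libraries the diet estimates of CD244 and IL18R1 were -0.035 and -0.011, and without pigs at 0 mg/kg the slope of IL1R2 was -0.071. Replicate numbers only follow accession order and pair no pigs, so littermates were compared with sow as a fixed block or a random effect. When single pigs were left out, 18 of the 42 named estimates moved by more than 1.5 times, and none of these changed sign. Depth limits the set: 36 of the 113 genes had fewer than 100 counts in all libraries together.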

Other observations

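CD244, noticed after its values were seen, was lowest in the 3 pigs of sow 931. Low AS control replicate 4 had 0 of 3033725 counts (0 CPM), High AS control replicate 1 had 2 counts (0.552 CPM) and High AS chicory replicate 4 had 4 counts (1.21 CPM). The other 29 pigs ran from 1.66 to 27.96 CPM. The 3 pigs of sow 930 had 7.37 to 27.96 CPM and the 3 pigs of sow 641 had 5.86 to 21.5 CPM. The 5 pigs of sow 210 ran from 2.33 to 16.1 CPM and the 2 pigs of sow 773 from 2.41 to 18.9 CPM. The relation to sow was not tested.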
